A study of Mus musculus with 9 samples.

Results

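The insulin-like growth factor (IGF) axis was followed in 3 mouse stromal cell lines through 10 genes, comprising the ligands Igf1 and Igf2, the receptors Igf1r and Igf2r, and the binding proteins Igfbp2 to Igfbp7. The genes were taken by name, and every probe set that the platform annotation assigns to 1 of them alone was used. This gave 20 probe sets for 9 genes, out of 15964 genes with a probe set of their own in the whole series. Igfbp5 had no such probe set, because the annotation gives its only one to another gene as well, and it was not analysed here. AGM-s3-A9 is a line from the aorta-gonad-mesonephros (AGM) region of the embryo that supports hematopoiesis. OP9 is a supportive line from newborn mouse calvaria. AGM-s3-A7 comes from the AGM region too and does not support hematopoiesis. The labels give no treatment, genotype or time, each line stands for its kind alone, and OP9 differs from AGM-s3-A7 in origin as well as in supportive capacity.

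IGF1 and IGF2 are secreted growth factors that act through the tyrosine kinase receptor encoded by Igf1r. The product of Igf2r, the cation-independent mannose 6-phosphate receptor, takes up IGF2 and carries it to lysosomes. The binding proteins hold the ligands in the extracellular fluid, can block or prolong their action, and are released from them by proteases. Stromal cells of embryonic and bone origin are known sources of both ligands and binding proteins, and Igf2 and Igf2r are imprinted genes in the mouse.

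There was 1 array per line for each design, MG-U74A, MG-U74B or MG-U74C, which makes 9 arrays, so no replicate error, test or p-value can be given. Values are intensities after quantile normalization within an array type, in arbitrary units. A probe set was taken as measured above a detection level, which was 49.0 for MG-U74A, 52.8 for MG-U74B and 61.6 for MG-U74C. That level is the median of the array type or the 95th percentile of control probe sets without a target, whichever is higher. Values at or below it were set to it in ratios, so a fold against such a value is a lower bound and is written "at least". As a measure of technical scatter, log2 ratios were compared between probe sets of 1 gene on 1 array type. Relative to AGM-s3-A7, their robust SD was 0.30 in AGM-s3-A9 and 0.32 in OP9, and it was 0.32 for AGM-s3-A9 relative to OP9. This scatter does not cover separate cultures or hybridisations. A ratio called within or beyond it is compared with 1 such SD, which unchanged genes can also pass. Of 12 fibroblast markers, 10 were above the detection level in AGM-s3-A9, 9 in OP9 and 11 in AGM-s3-A7, led by Col1a1 and Col1a2. The probe set of the mesenchymal marker Vim was below it in all 3 lines. None of 8 endothelial markers, and of 9 hematopoietic markers only Cd14, exceeded it in any line, and the leukocyte gene Ptprc read 1.44 in AGM-s3-A9, 2.31 in OP9 and 0.903 in AGM-s3-A7. Of 7 epithelial markers, Epcam and Cdh1 were above the level in every line, the highest being 126 for Cdh1 in AGM-s3-A7.

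Of the 20 probe sets, 14 were above the detection level in at least 1 line, and they belong to 7 genes. All 7 were measured in AGM-s3-A9, 5 in OP9 and all 7 in AGM-s3-A7. The 2 not detected in OP9 were the binding protein genes Igfbp2 and Igfbp6. Igfbp3 and Igfbp7 stayed below the level in every line. These counts need the share over all probe sets beside them. Of the 20 IGF probe sets, detected or not, 14 are on MG-U74A, whose level is the array median. By this definition 6244 of its 12488 probe sets passed in each line. Where controls set the level, fewer passed per line, with 4297 of 12477 for MG-U74B and 1611 of 11934 for MG-U74C. The plot of intensities gives all 20 IGF probe sets.

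**Figure D1:**
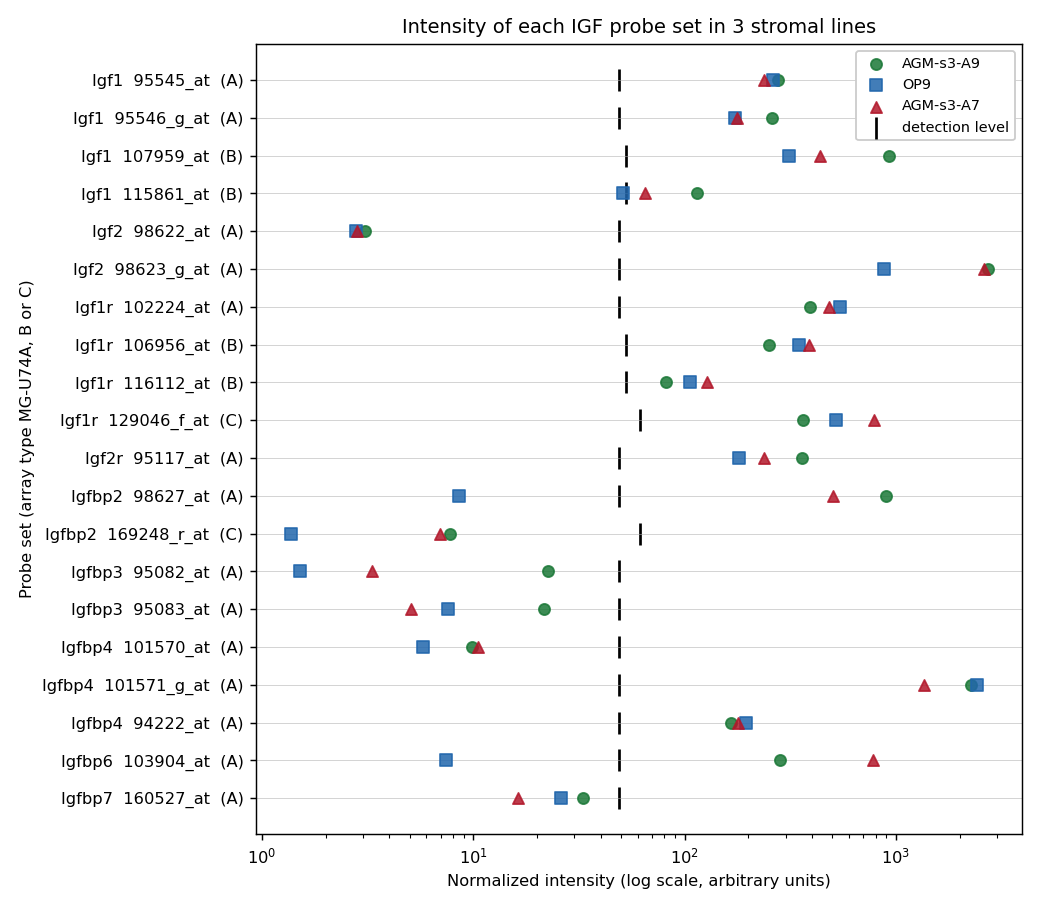
Normalized intensity (log axis) of every IGF probe set in AGM-s3-A9 (circles), OP9 (squares) and AGM-s3-A7 (triangles), 1 array per point, with the detection level of the array type as a black tick. Igfbp2 and Igfbp6 in OP9 lie at 8.56 and 7.44, far left of the tick at 49.0, while both are right of it in the AGM lines.

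Counted by the brightest probe set of each gene, 1 of 7 measured IGF genes (Igf1) reached 2-fold higher in AGM-s3-A9 relative to AGM-s3-A7, where 3.08% of 8590 measured genes were, and 2 (Igf1r and Igfbp6) were lower by that much, where 2.28% of genes were. In OP9 relative to AGM-s3-A7, 0 were higher, against 5.14% of 8739 genes, and 3 (Igf2, Igfbp2 and Igfbp6) were lower, against 5.98%. In AGM-s3-A9 relative to OP9, 4 (Igf1, Igf2, Igfbp2 and Igfbp6) were higher, against 6.58% of 8760 genes, and 0 were lower, against 5.06%. The median log2 ratio of the 7 genes was 0.59, -0.60 and 1.58 in these comparisons in turn, and that of all measured genes was 0.01, 0.04 and -0.02. The 3 comparisons share arrays and are not independent of each other. The share of calls that are higher depends on the scaling. Relative to AGM-s3-A7, AGM-s3-A9 had 265 genes higher and 196 lower, but 1123 and 285 with the values as deposited and 616 and 115 with scaling on hybridization controls. OP9 had 449 higher and 523 lower, and with hybridization control scaling 701 and 398.

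**Figure D2:**
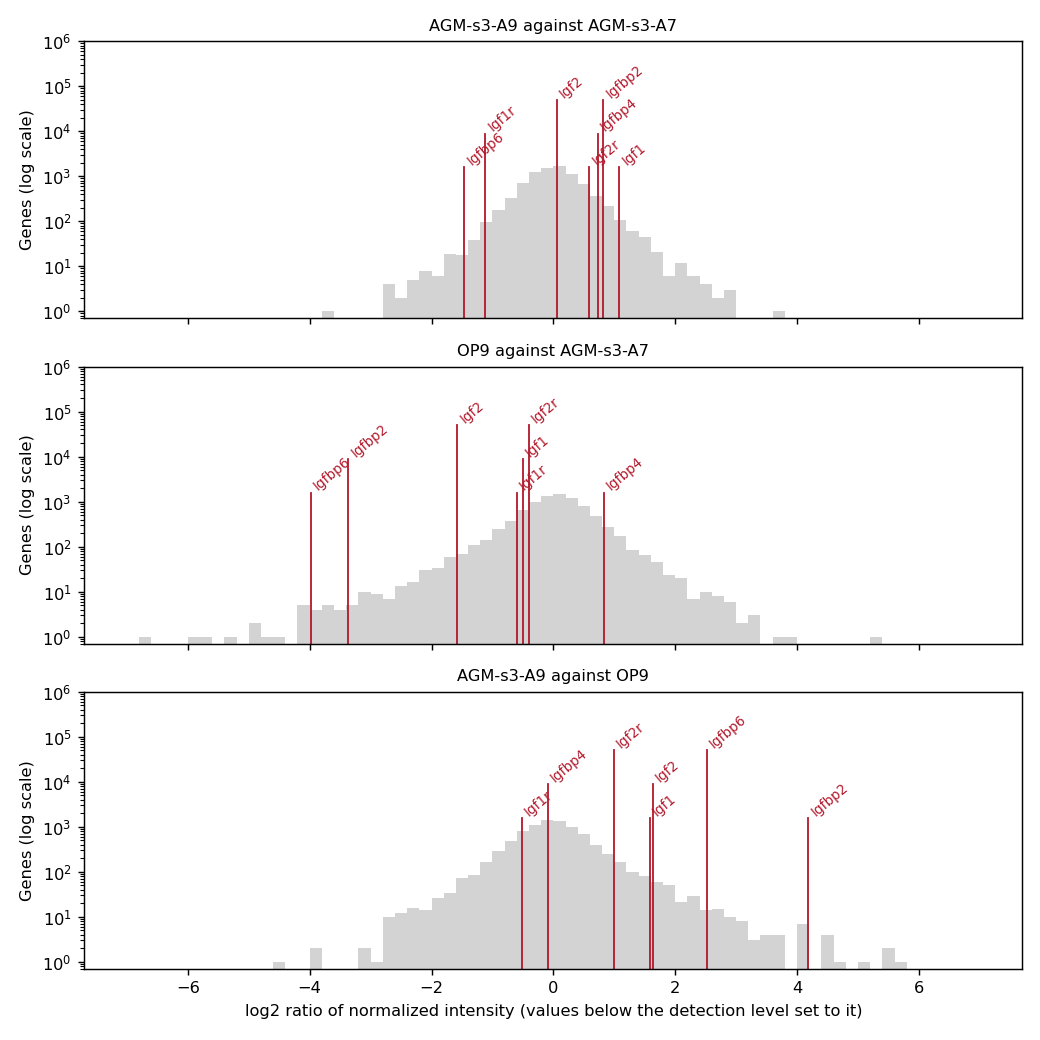
Histograms of the log2 ratio of all measured genes for each pair of lines (number of genes, log axis), with the 7 measured IGF genes as red lines. In OP9 against AGM-s3-A7, Igfbp6 at -3.98 and Igfbp2 at -3.37 lie in the far left tail; the line heights only separate the labels.

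Among the ligands, Igf1, the growth factor produced by liver and by many mesenchymal cells, was highest in AGM-s3-A9. Its brightest probe set, on MG-U74B, read 930 in AGM-s3-A9, 311 in OP9 and 439 in AGM-s3-A7. AGM-s3-A9 was thus 2.12-fold above AGM-s3-A7 and 2.99-fold above OP9, and OP9 was 1.41-fold below AGM-s3-A7. With the values as deposited, the log2 ratio of AGM-s3-A9 to AGM-s3-A7 was 0.72, short of 2-fold. As an array measures the RNA of a whole culture, fewer expressing cells and less RNA per cell cannot be told apart here or in any result that follows.

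The size of the Igf1 difference depended on the probe set. The second probe set on MG-U74B read 114 in AGM-s3-A9, 50.8 in OP9 and 64.7 in AGM-s3-A7, which is 1.76-fold more in AGM-s3-A9 relative to AGM-s3-A7 and at least 2.16-fold more relative to OP9. The pair on MG-U74A gave smaller ratios. One of them read 258 in AGM-s3-A9, 172 in OP9 and 176 in AGM-s3-A7, and the other 276, 262 and 239 in the same order. All 4 probe sets placed AGM-s3-A9 highest, by log2 ratios of 0.21 to 1.08 against AGM-s3-A7 and 0.07 to 1.58 against OP9. The smallest of each range is within the technical scatter of 0.30 and 0.32. OP9 and AGM-s3-A7 had no settled order, with log2 ratios of 0.14, -0.03, -0.50 and at most -0.29 on the 4 probe sets.

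Igf2, the fetal growth factor expressed from the paternal allele, was the ligand that set OP9 apart. Its only probe set above the detection level, on MG-U74A, read 2712 in AGM-s3-A9, 877 in OP9 and 2612 in AGM-s3-A7. The AGM lines differed by 1.04-fold, a log2 ratio of 0.05 that is within the technical scatter. OP9 was 2.98-fold lower than AGM-s3-A7, and AGM-s3-A9 was 3.09-fold higher than OP9. The suffix of this probe set marks probes that may also match another sequence. Its partner, annotated to the same sequence record, read 3.07 in AGM-s3-A9, 2.78 in OP9 and 2.83 in AGM-s3-A7, which is below the detection level, so the difference rests on 1 probe set. In the RefSeq gene order of assembly GRCm38.p6, Igf2 lies on chromosome 7 next to its imprinted neighbour H19 on one side and the insulin gene Ins2 on the other, with 2 noncoding genes in each interval. H19 had no probe set of its own and was not analysed here. The brighter of the probe sets for Ins2 read 2.35 in AGM-s3-A9, 4.51 in OP9 and 2.30 in AGM-s3-A7, below the detection level in all lines.

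**Figure D3:**
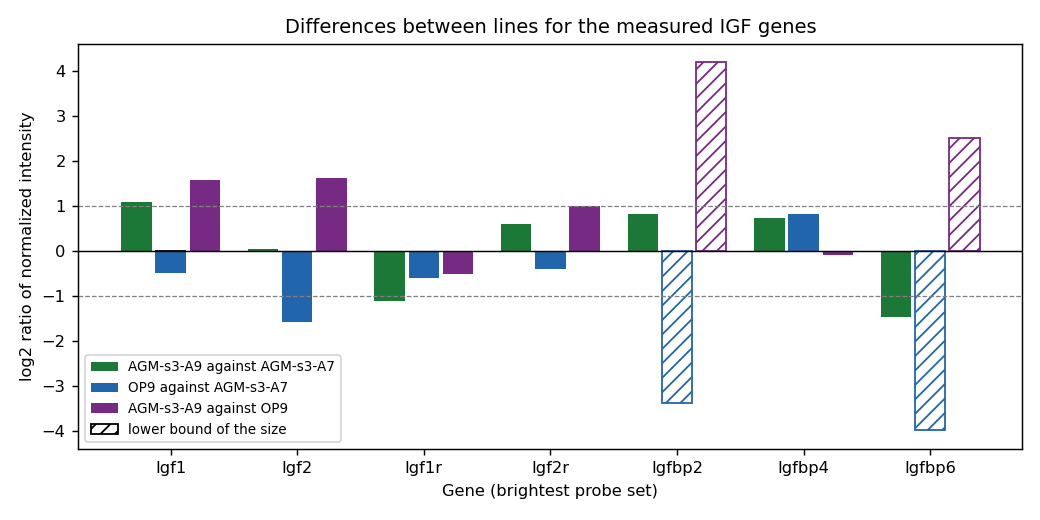
log2 ratio of normalized intensity for the brightest probe set of each measured IGF gene, in AGM-s3-A9 against AGM-s3-A7, OP9 against AGM-s3-A7 and AGM-s3-A9 against OP9; dashed lines mark 2-fold and hatched bars are lower bounds of the size. Igfbp2 and Igfbp6 have the longest bars, and all bars of OP9 against AGM-s3-A7 except that of Igfbp4 point down.

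Igf1r, which encodes the signalling receptor for both ligands, was lowest in AGM-s3-A9 on all 4 of its probe sets after normalization. The brightest, on MG-U74C, read 363 in AGM-s3-A9, 518 in OP9 and 788 in AGM-s3-A7. Relative to AGM-s3-A7, AGM-s3-A9 was 2.17-fold and OP9 1.52-fold lower. Its suffix marks possible cross-hybridisation, and it was the 1 probe set of the 4 to reach 2-fold. The probe set on MG-U74A read 392 in AGM-s3-A9, 540 in OP9 and 484 in AGM-s3-A7. Its deposited intensities were 539 in AGM-s3-A9, 482 in OP9 and 400 in AGM-s3-A7. Before normalization AGM-s3-A9 was thus highest on this probe set, so its order depends on the scaling. On MG-U74B the brighter probe set read 252 in AGM-s3-A9, 348 in OP9 and 386 in AGM-s3-A7, and the dimmer one 81.2, 106 and 127.

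The normalized values put Igf1r in AGM-s3-A9 below AGM-s3-A7 by log2 ratios of -1.12 to -0.31 and below OP9 by -0.51 to -0.38. Against AGM-s3-A7, OP9 gave log2 ratios of 0.16, -0.15, -0.27 and -0.60, so those lines did not differ beyond the technical scatter on 3 of 4 probe sets.

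**Figure D4:**
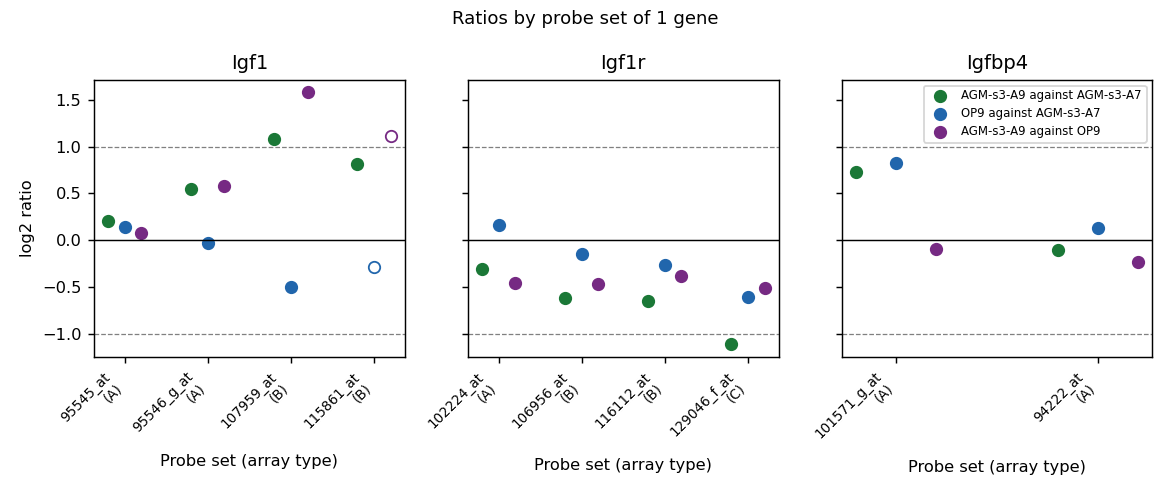
log2 ratios for each detected probe set of Igf1, Igf1r and Igfbp4 (array type in brackets), in the same 3 pairs of lines; open circles are lower bounds of the size and dashed lines mark 2-fold. The 4 probe sets of Igf1r all lie below 0 for AGM-s3-A9 against both other lines, while those of Igfbp4 range from -0.11 to 0.73 in AGM-s3-A9 relative to AGM-s3-A7.

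Igf2r, the clearance receptor for IGF2, is expressed in most mouse tissues from the maternal allele. Its single probe set read 357 in AGM-s3-A9, 180 in OP9 and 237 in AGM-s3-A7. AGM-s3-A9 was 1.51-fold above AGM-s3-A7 and 1.99-fold above OP9, and OP9 was 1.32-fold below AGM-s3-A7. AGM-s3-A9 was thus highest, by more than the technical scatter. Its log2 ratio to AGM-s3-A7, 0.59 here, was 1.32 with the values as deposited and 1.02 with hybridization control scaling, both past 2-fold. The log2 ratio of OP9 to AGM-s3-A7 was -0.40, but -0.30 as deposited and -0.17 with hybridization control scaling. OP9 was thus lower each time, but as deposited and with hybridization controls only within the technical scatter.

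Among the binding proteins, Igfbp2 and Igfbp6 were detected in both AGM lines and not in OP9. Igfbp2 encodes a binding protein abundant in fetal tissues that also carries an integrin-binding motif. Its detected probe set read 893 in AGM-s3-A9, 8.56 in OP9 and 506 in AGM-s3-A7. OP9 was at least 10.3-fold lower than AGM-s3-A7, AGM-s3-A9 was at least 18.2-fold higher than OP9, and AGM-s3-A9 was 1.77-fold higher than AGM-s3-A7. That last log2 ratio, 0.82, was 1.52 with the values as deposited. Before normalization the deposited intensities were 1205 in AGM-s3-A9, 7.74 in OP9 and 419 in AGM-s3-A7. The bound of the ratio of AGM-s3-A9 to OP9 was reached or passed by the ratio or bound of 10 of 8760 measured genes, itself included. The second Igfbp2 probe set, on MG-U74C, was below the detection level in every line, at 7.79, 1.37 and 6.96 in AGM-s3-A9, OP9 and AGM-s3-A7. Of the 12 fibroblast markers, 7 were lowest in OP9, among them Thy1, with 416 in AGM-s3-A9, 4.61 in OP9 and 206 in AGM-s3-A7. Others were not, such as Fn1 with 501 in AGM-s3-A9, 748 in OP9 and 669 in AGM-s3-A7. The summed intensity of the 12 markers, most of it from collagen genes and Sparc, was 21886 in AGM-s3-A9, 11701 in OP9 and 22918 in AGM-s3-A7. Their part in the Igfbp2 and Igfbp6 values was not tested. On chromosome 1 Igfbp2 is directly followed by Igfbp5, with 0 annotated genes between them.

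Igfbp6 encodes a binding protein with a marked preference for IGF2. Its single probe set read 281 in AGM-s3-A9, 7.44 in OP9 and 774 in AGM-s3-A7, and the deposited intensities were 389, 6.76 and 648 in that order. Unlike Igfbp2, it was lower in AGM-s3-A9 relative to AGM-s3-A7, by 2.75-fold, a log2 ratio of -1.46. With the values as deposited this log2 ratio was -0.74, short of 2-fold. In OP9 it was at least 15.8-fold lower than in AGM-s3-A7, a bound reached or passed by 15 of 8739 measured genes, itself included. AGM-s3-A9 was at least 5.74-fold higher than OP9. Igfbp6 lies on chromosome 15, whose 372 measured genes had a median log2 ratio of -0.49 in OP9 and, over 376 genes, -0.17 in AGM-s3-A9, both relative to AGM-s3-A7. Its part in the Igfbp6 values was not tested. On the chromosomes of the other IGF genes with a probe set these medians lay between -0.12 and 0.12 in all 3 comparisons.

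The promoters of Igfbp2 and Igfbp6 are shown because these genes were not detected in OP9, and that of Igfbp4 because it was detected in all 3 lines. Sequences are from RefSeq, build GRCm38.p6, plus strand, and run from 250 bases before to 50 bases after an annotated start; capitals mark the TATA box TATAAA, the CCAAT box CCAAT and the GC box GGGCGG on either strand. Igfbp2 has more than 1 annotated start, and those given are at chr1:72824230-72824529 and chr1:72825137-72825436. The Igfbp6 promoter is at chr15:102143936-102144235 and that of Igfbp4 at chr11:99040994-99041293.
Igfbp2 start 1: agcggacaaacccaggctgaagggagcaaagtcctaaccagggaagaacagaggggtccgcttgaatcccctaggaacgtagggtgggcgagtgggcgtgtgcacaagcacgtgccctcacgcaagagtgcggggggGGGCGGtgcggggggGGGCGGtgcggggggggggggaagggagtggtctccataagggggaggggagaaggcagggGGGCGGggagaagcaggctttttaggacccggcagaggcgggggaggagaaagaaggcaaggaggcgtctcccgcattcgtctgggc
Igfbp2 start 2: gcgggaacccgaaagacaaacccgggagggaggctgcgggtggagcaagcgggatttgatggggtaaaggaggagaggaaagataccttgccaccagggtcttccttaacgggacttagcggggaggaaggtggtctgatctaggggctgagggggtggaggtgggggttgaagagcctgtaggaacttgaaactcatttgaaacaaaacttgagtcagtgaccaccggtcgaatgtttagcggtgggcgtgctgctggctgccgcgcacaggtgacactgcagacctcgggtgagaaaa
Igfbp6: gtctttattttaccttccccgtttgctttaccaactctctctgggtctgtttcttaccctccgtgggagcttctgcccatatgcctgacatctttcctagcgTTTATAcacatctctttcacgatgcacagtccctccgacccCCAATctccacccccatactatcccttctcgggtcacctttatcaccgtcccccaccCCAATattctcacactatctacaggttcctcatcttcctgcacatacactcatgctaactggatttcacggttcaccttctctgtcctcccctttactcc
Igfbp4: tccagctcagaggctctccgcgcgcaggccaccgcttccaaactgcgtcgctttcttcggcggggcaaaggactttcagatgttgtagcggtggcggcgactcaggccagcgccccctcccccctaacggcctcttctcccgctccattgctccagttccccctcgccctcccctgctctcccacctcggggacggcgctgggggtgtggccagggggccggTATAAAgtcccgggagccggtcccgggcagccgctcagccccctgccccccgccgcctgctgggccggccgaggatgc

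The first Igfbp2 promoter holds 3 GC boxes, beginning at bases -113, -98 and -37 relative to the start, and the second holds none of the motifs. The Igfbp6 promoter holds 2 CCAAT boxes, at -107 and -50, and a TATAAA match on the reverse strand at -148, but no GC box. The Igfbp4 promoter holds a TATA box at -28 and neither other motif. The Igfbp2 and Igfbp6 promoters therefore have no searched motif in common. Their base composition differed too, with 67.0% and 57.3% G and C for Igfbp2 and 49.7% for Igfbp6, against 71.3% for Igfbp4 and a median of 52.7% over 32851 mouse promoters. Of those promoters 13.6% hold TATAAA, 37.4% CCAAT and 35.7% GGGCGG on either strand, so each motif is common. Other IGF genes detected in every line hold them too, with GC boxes for Igf1r, Igf2r and Igf2. CCAAT boxes were found for Igf1 and Igf2. A match describes the letters only.

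Igfbp4, whose product is freed from IGFs by the protease PAPP-A, was detected in every line. Its brightest probe set read 2257 in AGM-s3-A9, 2406 in OP9 and 1359 in AGM-s3-A7. The ratio to AGM-s3-A7 was 1.66-fold for AGM-s3-A9 and 1.77-fold for OP9, and the log2 ratio for AGM-s3-A9, 0.73, was 1.26 with the values as deposited. A second probe set read 166 in AGM-s3-A9, 195 in OP9 and 179 in AGM-s3-A7, and its log2 ratios of -0.11 and 0.13 were within the technical scatter. Its deposited intensities were 227 in AGM-s3-A9, 173 in OP9 and 148 in AGM-s3-A7, so the order of the lines depends on the scaling. The third was below the detection level, at 9.91, 5.80 and 10.6 in the same lines. The brightest again carries a suffix for shared probes. After normalization, the higher level in both supportive lines was thus seen on 1 of 2 measured probe sets.

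Igfbp3 encodes the main carrier of IGFs in serum. Its probe sets read 22.7 and 21.5 in AGM-s3-A9, 1.52 and 7.59 in OP9 and 3.30 and 5.04 in AGM-s3-A7. Igfbp7, a low-affinity relative that is secreted into the matrix, read 33.1 in AGM-s3-A9, 26.0 in OP9 and 16.3 in AGM-s3-A7. No fold is given, since all these values lie below the detection level of 49.0, and transcripts of either gene were not detectable at this signal over background.

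For the 3 IGF genes with the widest range across the lines, the genes of nearest pattern were sought by the distance between centred log2 values among 4852 genes of MG-U74A, with values below the detection level set to it. Igfbp2 and Igfbp6 were below it in OP9, as were Kng1 and Tpm2, so these distances do not compare true levels in OP9. With 3 values per gene many genes come close, and nothing more is meant by it. Nearest to Igfbp2 were Kng1 and Tpm2, at distances of 0.14 and 0.31 on the log2 scale. Kng1, the kininogen gene, read 820 in AGM-s3-A9, 26.9 in OP9 and 533 in AGM-s3-A7. Nearest to Igfbp6 were Lmo7 at 0.14 and Cavin2, a gene of caveolae, at 0.20, and Lmo7 read 360 in AGM-s3-A9, 63.9 in OP9 and 1126 in AGM-s3-A7. Nearest to Igf2 was the stress gene Sesn1 at 0.06.

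The wider pathway was followed through 56 further genes for insulin receptors, adaptors, kinases, proteases that act on binding proteins and imprinted or fetal growth regulators. Of these, 47 had a probe set of their own and 35 were measured in at least 1 pair of lines. Relative to AGM-s3-A7, 2 of 33 reached 2-fold higher in AGM-s3-A9, against a background of 3.08%, and 3 were lower, against 2.28%. In OP9, 1 of 35 was higher, against 5.14%, and 2 were lower, against 5.98%. In AGM-s3-A9 against OP9, 1 of 34 was higher, against 6.58%, and 4 were lower, against 5.06%. The median log2 ratios were -0.17, -0.03 and -0.04 in these comparisons.

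Cdkn1c, an imprinted gene for a cell cycle inhibitor that restrains fetal growth, was detected in AGM-s3-A7 alone. It read 25.4 in AGM-s3-A9, 17.0 in OP9 and 145 in AGM-s3-A7, so that AGM-s3-A9 and OP9 were each lower by a factor of at least 2.96. Socs2, which encodes an inhibitor of growth hormone signalling, read 123 in AGM-s3-A9, 122 in OP9 and 248 in AGM-s3-A7. AGM-s3-A9 was 2.02-fold and OP9 2.04-fold lower, and 1 further measured probe set gave at least 1.47-fold lower in both. Hmga2, a chromatin gene of fetal growth, read 128 in AGM-s3-A9, 124 in OP9 and 63.4 in AGM-s3-A7, with AGM-s3-A9 2.01-fold and OP9 1.96-fold higher. These ratios have the AGM-s3-A7 arrays in common. Socs2 was short of 2-fold in both lines with the values as deposited and with hybridization control scaling, and in AGM-s3-A9 with trimmed mean scaling. Hmga2 was short of it in AGM-s3-A9 with 75th percentile scaling and with a doubled detection level. Cdkn1c was short of it in both lines with a doubled detection level.

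Irs1, the adaptor that couples the IGF1 receptor to phosphatidylinositol 3-kinase, separated the supportive lines from each other. Its measured probe set read 491 in AGM-s3-A9, 1407 in OP9 and 766 in AGM-s3-A7, so AGM-s3-A9 was 2.87-fold below OP9. Eif4ebp1, a translational repressor gene downstream of mTOR, read 106 in AGM-s3-A9, 338 in OP9 and 216 in AGM-s3-A7, AGM-s3-A9 being 2.04-fold below AGM-s3-A7 and 3.19-fold below OP9. The ratio to AGM-s3-A7 was short of 2-fold as deposited and with trimmed mean or hybridization control scaling. Gsk3b, encoding a kinase inhibited by insulin and IGF signals, read 101 in AGM-s3-A9, 219 in OP9 and 141 in AGM-s3-A7. AGM-s3-A9 was 2.17-fold below OP9, and 2 of 3 measured probe sets reached 2-fold. Ptpn1, a phosphatase gene for the insulin receptor, read 492 in AGM-s3-A9, 234 in OP9 and 338 in AGM-s3-A7, or 2.10-fold higher in AGM-s3-A9 than in OP9, and a second probe set gave 1.86-fold.

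Grb10, an imprinted gene for an adaptor that inhibits insulin and IGF1 receptors, gave opposite results on different array types. The MG-U74C probe set, its brightest, carries the suffix r and read 140 in AGM-s3-A9, 500.3 in OP9 and 67.9 in AGM-s3-A7. On MG-U74A one probe set, without a suffix, read 133 in AGM-s3-A9, 10.7 in OP9 and 93.8 in AGM-s3-A7. Another, with the suffix s, read 106, 5.57 and 119 in the same order. OP9 was thus 7.37-fold higher than AGM-s3-A7 on the first and at least 1.91-fold and at least 2.43-fold lower on the others, so its direction is not settled.

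Htra1 and Grb14 were not counted above, because their brightest probe sets were within 2-fold in every pair, and they are named after their values were seen. Htra1 encodes a secreted serine protease that can cleave binding proteins. Of its probe sets, the brighter one (MG-U74C, suffix i) read 1228 in AGM-s3-A9, 1121 in OP9 and 1142 in AGM-s3-A7. The other, on MG-U74A and without a suffix, read 695 in AGM-s3-A9, 39.1 in OP9 and 2121 in AGM-s3-A7. On it, AGM-s3-A9 was 3.05-fold and OP9 at least 43.3-fold below AGM-s3-A7. The probe sets of Htra1 thus disagree, and its difference is not settled. Grb14, for an adaptor related to Grb10, read 242 in AGM-s3-A9, 211 in OP9 and 273 in AGM-s3-A7 on its brightest probe set. That probe set carries the suffix r. A dimmer one without a suffix read 56.2 in AGM-s3-A9, 161 in OP9 and 119 in AGM-s3-A7. It places AGM-s3-A9 2.11-fold below AGM-s3-A7 and 2.86-fold below OP9.

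**Figure D5:**
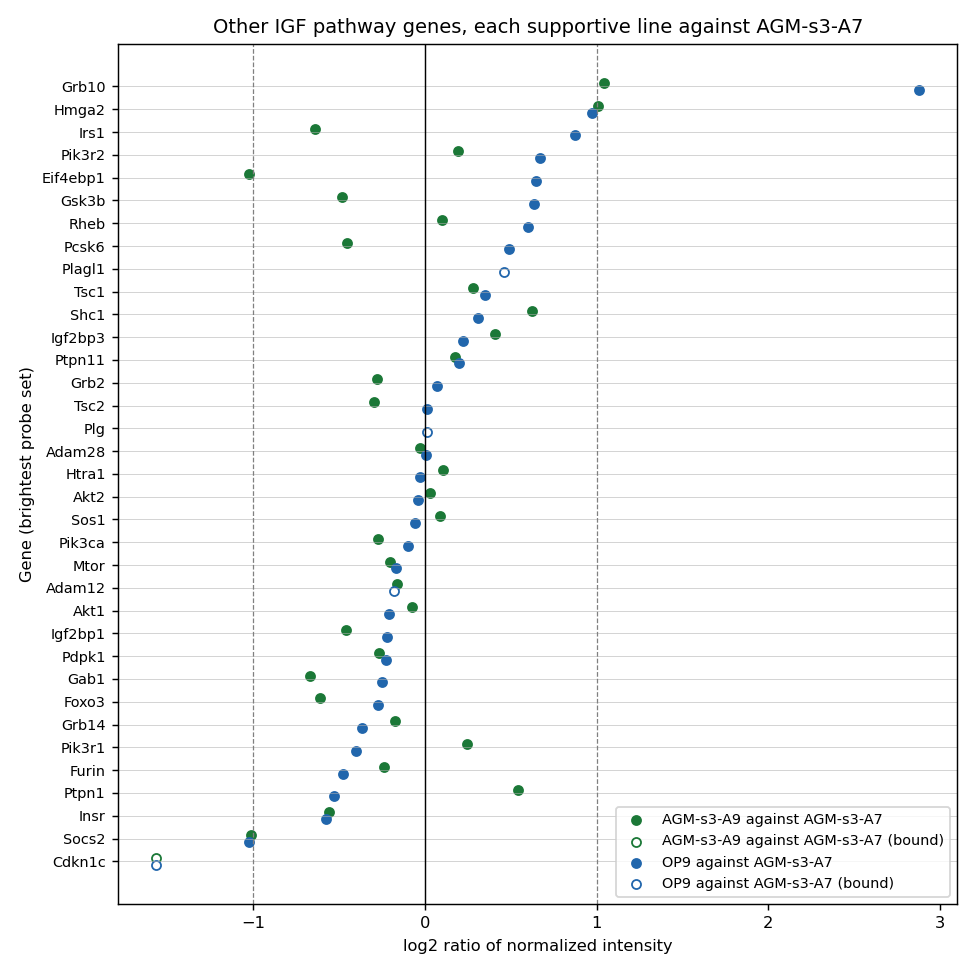
log2 ratio of the brightest probe set of 35 measured genes of the wider IGF pathway, in AGM-s3-A9 and in OP9, each against AGM-s3-A7. The 10 IGF genes themselves are left out. Open circles are lower bounds of the size and dashed lines mark 2-fold. Most points lie within the dashed lines; Cdkn1c and Socs2 are left of them for both lines, and Grb10 lies furthest right for OP9, at 2.88.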

How the data were processed

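Total RNA of each line was extracted on RNeasy columns and biotinylated cRNA was made from 6 ug, per the labels' protocols. The authors deposited 1 linear intensity per probe set and array for Affymetrix arrays. The software, probe summary, background handling and scaling are not given in these sources. Trimmed means of the 3 arrays of a type differed by up to 61.1% on MG-U74A, so log2 intensities were quantile normalized within each array type, which removes any general shift between lines. Median deposited intensities ran from 42.7 to 64.5 on MG-U74A, 21.6 to 32.6 on MG-U74B and 8.49 to 12.1 on MG-U74C.

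Of 36899 probe sets, 29131 had 1 gene symbol in the platform annotation, 724 several and 6846 none, besides 198 controls. Of the genes, 99.8% were present in the RefSeq table of GRCm38.p6, used for chromosomes and gene order. The brightest probe set over the 3 lines represented a gene. The percentile of controls rested on 34 control probe sets per array type. The detection level was the median on MG-U74A, where the percentile of controls was 39.1. On MG-U74B and MG-U74C it was the percentile of controls. Genes were called at 2-fold, with no test. All IGF genes are named, of the wider pathway those at least 2-fold apart in any pair by their brightest probe set, and 2 genes of nearest pattern for each of 3 genes, of which 1 is not reported here. Members and lists were chosen with earlier results of these data known. Computation used Python 3.11.15, numpy 2.4.6 and pandas 2.3.3, and was tested on simulated data. Alternatives covered the scaling, the detection level, the fold and the choice of probe set.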

Additional observations from a re-analysis of the deposited data

Results flagged for a closer look

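The genes Igf1, Igf2r and Igfbp2 were higher in AGM-s3-A9 and lower in OP9, each relative to AGM-s3-A7. On the brightest probe set each ratio exceeded 1 SD of the technical scatter, which is a low bar. The ratios in AGM-s3-A9 were reached or passed by 212 (Igf1), 885 (Igf2r) and 445 (Igfbp2) of 8590 measured genes. Those in OP9 were reached or passed by 1449, 1795 and 29 of 8739 in the same gene order. For Igf1 the lower level in OP9 was seen beyond that scatter on 1 of 4 probe sets. Another probe set of Igf1 gave only a bound, a log2 ratio of at most -0.29. For Igf2r OP9 was lower under every scaling, but beyond that scatter only under some. With 1 array per line, the differences were not tested, and each equals the log2 ratio of AGM-s3-A9 to OP9. For Igfbp2 the log2 ratio to AGM-s3-A7 was 0.82 in AGM-s3-A9 and at most -3.37 in OP9, at least 4.19 apart. For Igf1 it was 1.08 in AGM-s3-A9 and -0.50 in OP9, a difference of 1.58 on the brightest probe set and 0.07 on the probe set of MG-U74A that represents the gene when only that array type is used. For Igf2r it was 0.59 in AGM-s3-A9 and -0.40 in OP9, a difference of 0.99.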

How the results depend on the processing

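The counts of 1 IGF gene higher and 2 lower in AGM-s3-A9 relative to AGM-s3-A7 depended on the setting. There were 3 higher (Igf2r, Igfbp2 and Igfbp4) and 1 lower (Igf1r) with values as deposited, where 12.8% of all genes were higher and 3.24% lower. With hybridization control scaling 3 were higher, where 7.18% of all genes were. With 1.5-fold as threshold 4 were higher, where 10.5% of all genes were, and in OP9 against AGM-s3-A7 1 was (Igfbp4), where 14.2% were. In AGM-s3-A9 relative to AGM-s3-A7, with 3-fold 0 were higher and 0 lower, where 0.687% and 0.536% of all genes were. There were 0 higher and 1 lower with the median of a gene's probe sets, where 2.66% and 1.94% of all genes were. The counts were 0 and 1 with MG-U74A alone as well, against 3.11% and 2.15%. Without suffixed probe sets 1 was lower, against 2.31%. In OP9 against AGM-s3-A7, Igfbp2 and Igfbp6 were among the lower genes under all 11 alternatives, and Igf2 under all but the 3-fold threshold and unsuffixed probe sets, the last of which leave it unmeasured. Of 88 alternative values for the 10 ratios of at least 2-fold, 88 kept their sign and 79 stayed at 2-fold. Many of these values could not differ from the main one, so the counts do not measure robustness. The probe set choices reuse the same probe set for genes with 1 measured, and the array median as detection level left these ratios unchanged. Igf2 in AGM-s3-A9 relative to AGM-s3-A7 (-0.24 to 0.49) was among the uncalled ratios whose sign varied. Medians of all genes moved by over 0.1 with values as deposited (0.24 in AGM-s3-A9 relative to AGM-s3-A7, 0.19 in AGM-s3-A9 against OP9) and with hybridization controls (0.23, and 0.21 for OP9 against AGM-s3-A7). Counts over all genes ranged, against 265 higher and 196 lower in AGM-s3-A9 relative to AGM-s3-A7, from 59 to 1123 and 46 to 747. Against 449 and 523 in OP9 they ranged from 128 to 1244 and 213 to 1170, and against 576 and 443 for AGM-s3-A9 and OP9 from 238 to 1240 and 117 to 1269. Of the wider pathway, Cdkn1c was lower in both lines under each scaling. It lost both calls with a doubled detection level and with 3-fold as threshold. Socs2, Eif4ebp1, Hmga2 and Grb10 lost calls under some settings as well. The cause of these shifts was not tested. Each line had 1 array per type, so leaving out replicates was not run. Signal over background limits Igfbp3, Igfbp7 and the folds of Igfbp2 and Igfbp6 in OP9.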
